A study of Mus musculus with 4 samples.

Results

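A set of 7 genes of microglia and of the first complement component was followed in RNA from area CA1 of the mouse hippocampus. They are C1qa, C1qb, Csf1r, Ctss, Laptm5, Aif1 and Cd68. These 7 were picked by their names, with no measured value in the rule but with earlier results of these data known. All 7 of them, out of 8251 genes named on the array, had at least 1 probe set that the annotation assigns to exactly 1 gene, 11 probe sets in all. The samples were 4 arrays of handled controls, young male C57BL/6J mice that were handled and given no other treatment, as controls for mice that were shocked. The RNA was taken 1, 2, 4 and 6 hours after the last shock of those other mice, with 1 sample at each time. No shocked sample was analysed here, and nothing in the labels tells if 1 mouse or several gave each RNA. Differences between samples therefore mix time, animal, dissection and array.

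Microglia are the resident macrophages of the brain. They depend on the receptor encoded by Csf1r for survival, digest what they take up in lysosomes, and in the brain are the main source of C1q. C1q is built from the products of C1qa, C1qb and C1qc, which join in equal parts, and its binding to a surface starts the classical complement cascade. In the hippocampus C1q and microglia are known for tagging and removing synapses.

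The values below are the deposited signals, on a linear scale, unless they are called log2. A log2 difference is the value of one sample minus the mean of the other 3 after quantile normalization, with the SD of those 3. Signals of different probe sets are not on a common scale, so differences in level between genes were not tested. Levels were still used to filter probe sets, to take the brightest of a gene, in sums over genes, and in descriptions such as low. A signal of 35.1 served as the floor under which values were treated as equal, and 9 of the 11 probe sets, covering 6 genes, were bright enough on average to be tested. Aif1 and the second probe set of Cd68 were not. Neuronal and CA1 markers were present, with Snap25, a synaptic protein, at 17210 to 19258, Wfs1, a marker of CA1 pyramidal neurons, at 1964 to 2797, and Pou3f1, another CA1 marker, at 489 to 726. Prox1, the marker of the neighbouring dentate gyrus, was at 25.1 to 59.8. Camk2a, a kinase gene abundant in forebrain excitatory neurons, was low on both of its probe sets, at 29.7 to 94.9 on one and 5.1 to 64.5 on the other. These marker genes were chosen after the data were at hand. The 1-hour sample stood apart in its RNA: the 3' signal over the 5' signal of Gapdh was 4.52 there, against 1.18, 1.37 and 1.20 in the 2-, 4- and 6-hour samples. For beta-actin the same ratio was 2.34 at 1 hour and 2.00, 1.80 and 1.76 in the others.

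The complement genes C1qa and C1qb, which encode the A and B chains of C1q, were lowest in the 1-hour sample and highest in the 4-hour sample. C1qa had signals of 986, 1407, 1784 and 1556 at 1, 2, 4 and 6 hours. C1qb had 514, 773, 1062 and 804. Both genes thus had the same order of samples, 1 hour lowest, then 2, 6 and 4 hours. The highest signal was 1.81 times the lowest for C1qa and 2.06 times for C1qb. The 1-hour sample lay below the mean of the other 3 by a log2 difference of -0.65 for C1qa (SD 0.17) and -0.71 for C1qb (SD 0.26). The 4-hour sample lay above the mean of the other 3 by 0.45 for C1qa (SD 0.33) and 0.63 for C1qb (SD 0.33). With 1 sample at each time, no spread within a time is known, so neighbouring samples in this order cannot be called different. In tissue RNA, fewer microglia and less RNA per microglial cell cannot be told apart.

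C1qc, the gene of the C chain, was nearly level in the same samples. Its signal was 1504, 1499, 1679 and 1609 at 1, 2, 4 and 6 hours, a range of 0.17 on the log2 scale against 0.82 for C1qa and 1.00 for C1qb. The 1-hour sample was -0.08 from the mean of the other 3 for C1qc (SD 0.08). The log2 difference C1qa minus C1qb stayed within 0.20 over the 4 samples, whereas C1qa minus C1qc spanned 0.66 and C1qb minus C1qc spanned 0.84. In the gene table the 3 subunit genes lie side by side on chromosome 4, with C1qc between C1qb and C1qa and no other listed gene among them. The low C1qa and C1qb values stand in the sample with the Gapdh ratio of 4.52, and the part of RNA quality in them was not tested. Without the 1-hour sample the log2 range was 0.33 for C1qa and 0.47 for C1qb, and without the 4-hour sample it was 0.63 for C1qa and 0.60 for C1qb.

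A second C1qb probe set had another profile, with 141, 272, 161 and 167 at 1, 2, 4 and 6 hours. Its highest value was in the 2-hour sample, 0.76 above the mean of the other 3 on the log2 scale (SD 0.14), and its lowest again in the 1-hour sample. Without the 2-hour sample its range was 0.25, against 0.91 with all 4. The suffix i in its name is the array maker's mark for a probe set with fewer probes than usual, as r marks one chosen with relaxed rules, f one shared by a gene family and s one shared by several transcripts. The 2 probe sets of C1qb thus shared the low 1-hour value and not the sample in which they were highest.

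**Figure D1:**
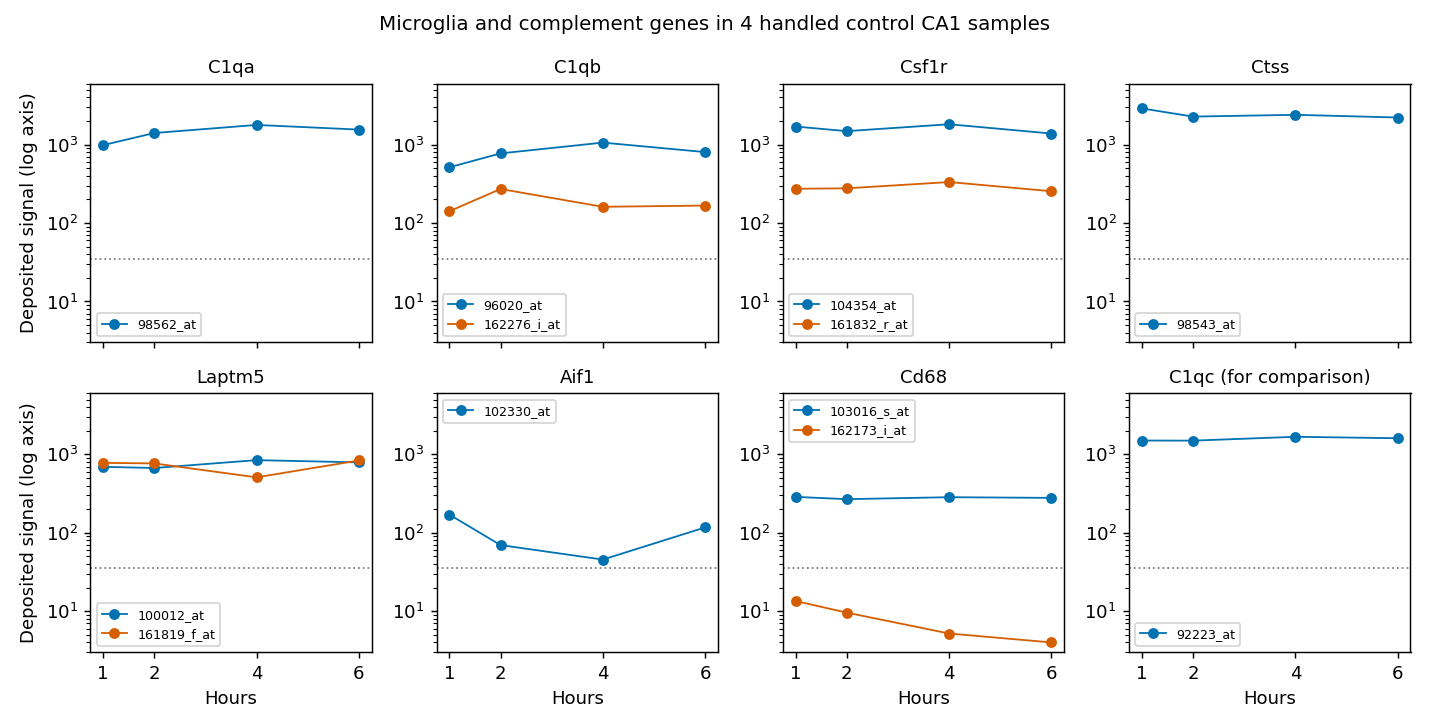
Deposited signal (log axis) of each probe set against hours (x axis), 1 point for each sample, with 1 panel for each of the 7 genes and 1 for C1qc. The dotted line marks the floor signal of 35.1. C1qa and the first C1qb probe set run in parallel from 986 and 514 at 1 hour to 1784 and 1062 at 4 hours, while C1qc stays between 1499 and 1679.

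The promoters of the C1q genes and of other microglial genes are shown because C1qa and C1qb, but not C1qc, had similar profiles. Spi1, also called PU.1, is the transcription factor that macrophages and microglia need, and it binds DNA at a purine-rich core, here searched for as GAGGAA on both strands (TTCCTC on the other). RefSeq sequences of build GRCm38.p6, from 250 bases before the start of transcription to 50 bases of the transcript, were at hand for 5 of the 7 genes (not C1qa or Csf1r) and for C1qc. In each sequence below, read 5′ to 3′ on the gene's strand, capitals mark that core. C1qb lies at chr4:136886151-136886450 on the minus strand, C1qc at chr4:136892865-136893164 on the minus strand, Ctss at chr3:95526536-95526835 on the plus strand and Aif1 at chr17:35176003-35176302 on the minus strand.
C1qb: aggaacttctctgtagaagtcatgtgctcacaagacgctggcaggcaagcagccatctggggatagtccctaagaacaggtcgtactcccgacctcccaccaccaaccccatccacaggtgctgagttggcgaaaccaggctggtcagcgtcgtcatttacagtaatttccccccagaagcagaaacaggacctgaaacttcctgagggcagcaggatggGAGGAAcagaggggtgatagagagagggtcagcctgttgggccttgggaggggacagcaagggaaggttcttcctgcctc
C1qc: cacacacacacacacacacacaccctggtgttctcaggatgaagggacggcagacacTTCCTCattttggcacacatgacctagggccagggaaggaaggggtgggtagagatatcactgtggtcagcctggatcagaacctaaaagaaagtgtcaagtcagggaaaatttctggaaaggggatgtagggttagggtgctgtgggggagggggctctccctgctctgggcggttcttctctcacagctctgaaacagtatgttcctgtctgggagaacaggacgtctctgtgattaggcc
Ctss: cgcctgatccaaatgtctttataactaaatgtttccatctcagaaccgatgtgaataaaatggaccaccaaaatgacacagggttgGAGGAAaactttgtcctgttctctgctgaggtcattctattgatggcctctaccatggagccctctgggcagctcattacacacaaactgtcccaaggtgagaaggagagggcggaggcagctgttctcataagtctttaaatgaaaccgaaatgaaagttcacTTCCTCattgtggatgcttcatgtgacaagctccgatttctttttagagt
Aif1: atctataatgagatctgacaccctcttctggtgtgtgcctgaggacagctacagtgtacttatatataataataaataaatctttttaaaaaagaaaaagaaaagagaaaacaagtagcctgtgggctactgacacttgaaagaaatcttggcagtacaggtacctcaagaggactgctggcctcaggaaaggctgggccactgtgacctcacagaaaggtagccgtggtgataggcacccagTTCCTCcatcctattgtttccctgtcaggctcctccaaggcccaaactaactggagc

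All 6 promoters searched held the core, against 28.3% of the 32851 mouse promoter windows of the same length. C1qa and Csf1r were not among the 6, whereas the 32851 windows were not restricted by chromosome. Counted from the first transcribed base as 0, the core began at -30 in C1qb and at -193 in C1qc. In Ctss it began at -164 and at 0, in Laptm5 at -38, in Aif1 at -7 and in Cd68 at -225 and at 29. The letters were thus found both in C1qb and in C1qc, whose profiles over the samples differed. CG pairs numbered 6 in C1qb, 3 in C1qc, 5 in Ctss, 9 in Laptm5, 1 in Aif1 and 4 in Cd68, against a median of 7 over all windows. A match of letters is a description and does not show that the factor binds. Spi1 itself had signals of 106, 125, 104 and 129 at 1, 2, 4 and 6 hours, a range of 0.30 on the log2 scale.

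Csf1r encodes the tyrosine kinase receptor for the cytokines CSF1 and IL-34. Its signals were 1701, 1487, 1820 and 1386 at 1, 2, 4 and 6 hours, and those of its second probe set, marked r, were 274, 277, 333 and 255. Both were highest in the 4-hour sample and lowest in the 6-hour sample. The 4-hour difference was 0.26 for the first (SD 0.15) and 0.33 for the second (SD 0.08), and the 6-hour difference -0.27 (SD 0.14) and -0.22 (SD 0.17). The root mean square difference between the log2 profiles of the 2 probe sets, each taken from its own mean, was 0.07, so the profiles lay close together. Csf1, which encodes one of its ligands, had 536, 384, 512 and 429, highest in the 1-hour sample.

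Among the lysosomal genes, Ctss, which encodes cathepsin S, a protease that cuts the invariant chain during antigen presentation, was highest in the 1-hour sample. It had 2896 there, and 2279, 2402 and 2219 at 2, 4 and 6 hours. The 1-hour difference was 0.33 on the log2 scale, with an SD of 0.05 among the other 3, which lay close together. This is the opposite direction to C1qa and C1qb in the same sample. Cd68, a glycoprotein of lysosomes and late endosomes in macrophages, had 288, 269, 285 and 279 on a probe set marked s. Its log2 range (0.16) was the narrowest among the tested probe sets of the 7 genes. Of all 7453 tested probe sets, 95.9% had a larger one. The second Cd68 probe set, marked i, had 13.5, 9.6, 5.2 and 4.0, under the floor in all 4 samples, so no order can be read from it.

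Laptm5 encodes a lysosomal membrane protein of haematopoietic cells and microglia. Its probe sets did not have the same profile. One had 695, 671, 845 and 792 at 1, 2, 4 and 6 hours, with a range of 0.35 on the log2 scale. The other, marked f, had 781, 768, 510 and 837, lowest in the 4-hour sample, where the first was highest. For that sample the log2 difference was 0.24 for the first (SD 0.12) and -0.63 for the second (SD 0.07). Without the 4-hour sample the range of the second was 0.13, against 0.70 with all 4. In which sample this gene was low therefore depends on the probe set.

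Aif1, which encodes the calcium-binding protein IBA1, used widely to stain microglia, had the widest range of the 7 genes. Its signals were 171, 69.8, 45.6 and 117 at 1, 2, 4 and 6 hours, 3.75 times higher in the highest than in the lowest sample. All 4 lay above the floor of 35.1, but its mean was under the level for testing, and with the floor at the 40th percentile its log2 range was 0.62 instead of 1.91. The 1-hour sample was highest and the 4-hour sample lowest, the reverse of C1qa and C1qb. The 1-hour difference was 1.28 (SD 0.69) and the 4-hour difference -1.27 (SD 0.69). In a limma fit with no filter on low values the trend of Aif1 was -0.42 ± 1.14 (SE) on the log2 scale from 1 to 6 hours, with an adjusted p of 1. Of all 12422 probe sets, 27.6% had a range of 2-fold or more and 5.64% a larger range than Aif1.

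**Figure D2:**
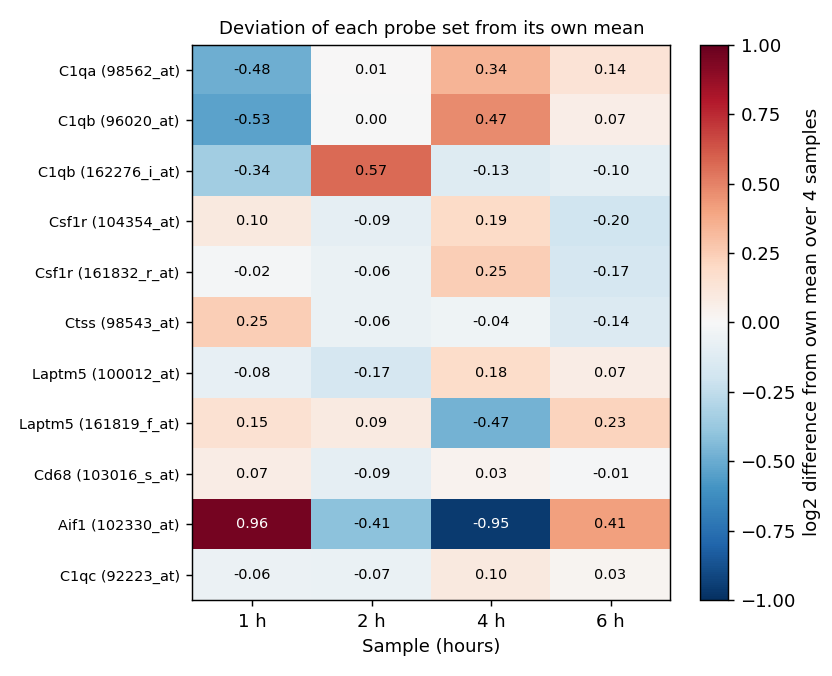
Log2 deviation of each probe set (rows) from its own mean over the 4 samples, by sample (columns, in hours), after quantile normalization. C1qa and the first C1qb probe set have -0.48 and -0.53 at 1 hour and 0.34 and 0.47 at 4 hours, Aif1 has 0.96 and -0.95 in those samples, and C1qc stays within 0.10.

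A linear trend over the hours was then tested for all probe sets together. None of the 9 tested probe sets of these genes passed in limma with Benjamini-Hochberg adjustment, and none had an unadjusted p under 0.05. The same adjusted test called 0 of 7453 probe sets (0%), and 467 of them (6.27%) had an unadjusted p under 0.05. C1qa had the smallest p of the 9, with a fitted log2 difference from 1 to 6 hours of 0.58 ± 0.29 (SE; unadjusted p = 0.0835, limma adjusted p = 0.742). C1qb had 0.59 ± 0.36 (SE; limma adjusted p = 0.763), and Ctss -0.30 ± 0.21 (SE; limma adjusted p = 0.782). Of the 9 coefficients, 3 were positive and 6 negative, and they ran from -0.30 to 0.59. The test rests on 4 samples and 2 residual degrees of freedom, and a p that misses the threshold does not show that these genes were constant.

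These genes spread over the control samples about as the array as a whole did, and the comparison was not tested. Over the 9 tested probe sets the median log2 range was 0.42, against 0.56 over all 7453, and the median SD was 0.18 against 0.25. Of the 9, only 1, the first C1qb probe set, had a range of 2-fold or more (1.00 on the log2 scale), against 17.8% of all tested probe sets. That value lies at the threshold. None of the 9 lay 2-fold or more above or below the mean of the other 3 in any sample. Of all tested probe sets, 1.76%, 1.25%, 1.07% and 1.53% lay that far above at 1, 2, 4 and 6 hours, and 4.55%, 1.72%, 1.93% and 1.61% lay that far below.

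**Figure D3:**
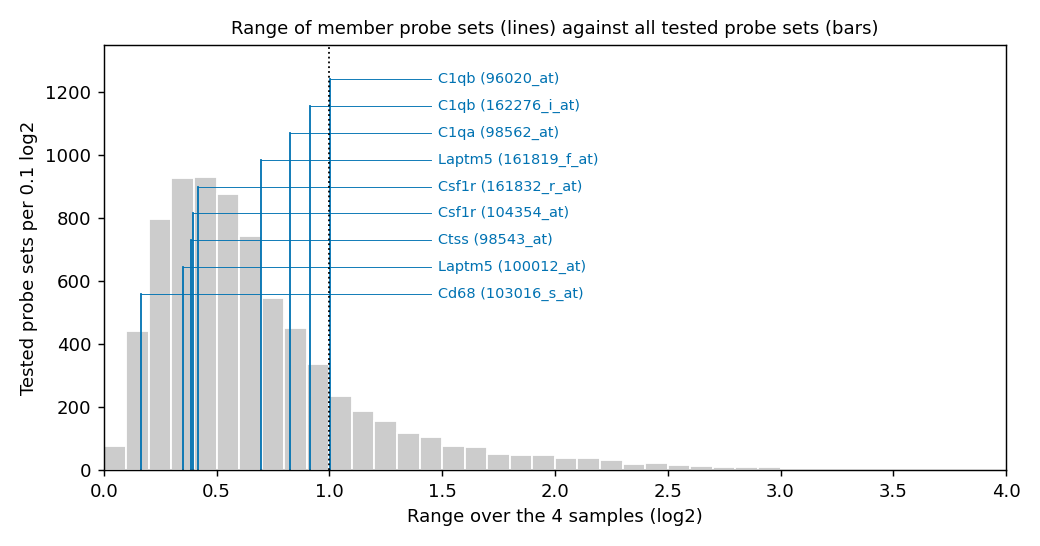
Number of tested probe sets (y axis, per 0.1 log2) by their range over the 4 samples (x axis, log2), with a line at the range of each of the 9 tested probe sets of the microglia and complement genes, whose heights carry no value. The dotted line marks 2-fold. The lines run from 0.16 for Cd68 to 1.00 for the first C1qb probe set.

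The 7 genes did not share one profile. With 1 probe set for each of the 6 tested genes, the median log2 difference was -0.01, -0.10, 0.25 and 0.03 in the 1-, 2-, 4- and 6-hour samples. Over all tested probe sets these medians were 0.05, 0.01, 0.01 and 0.00. In the 4-hour sample 5 of the 6 genes lay above the mean of the other 3 samples, all but Ctss, against 50.8% of all tested probe sets. This count takes the brightest probe set of each gene. Over all 9 tested probe sets it was 6 of 9, since the second probe sets of C1qb and Laptm5 had -0.17 and -0.63 there, and untested Aif1 had -1.27. In the 1-hour sample 3 were above and 3 below. The closest pair of different genes among the 7 had a root mean square difference of 0.08 between log2 profiles. That pair is C1qa and the first C1qb probe set, and 0.936% of 6733 tested probe sets of other genes lay nearer to C1qa. For C1qa against the second C1qb probe set the difference was 0.39, with 52.3% of those probe sets nearer. For C1qa against Csf1r the difference was 0.35 and against Ctss 0.44, with 40.8% and 63.8% of those probe sets nearer. The 4 samples are too few for a correlation, and profiles over 4 points are matched closely by many unrelated probe sets.

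Probe sets of other genes with the most similar profiles were found for the 3 probe sets with the widest range. For Aif1 they were Mst1r, a receptor kinase of macrophages and epithelia (root mean square log2 difference 0.08), Lss, lanosterol synthase (0.18), and Rabep1, an endosomal effector protein (0.19). Mst1r had 241, 102, 57.5 and 174 at 1, 2, 4 and 6 hours. For the first C1qb probe set they were Slc25a10, a mitochondrial dicarboxylate carrier (0.03), Mki67, a marker of dividing cells (0.04), and Atxn7l1 (0.05). Slc25a10 had 116, 169, 226 and 182. For the second they were Senp6, a SUMO protease (0.03), Entpd7, a nucleotide hydrolase (0.05), and Psmd11, a proteasome subunit (0.05).

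Other microglial genes were read from a wider list, of which 46 of 65 had a probe set with 1 gene and 26 were tested. None passed the trend test of limma in either direction, and 1 of 26 had an unadjusted p under 0.05, against 6.27% of all tested probe sets. That gene, named after its value was seen, was Rac2, a small GTPase of blood cells, with 285, 385, 506 and 550 at 1, 2, 4 and 6 hours. Of the 26, 6 (23.1%) had a range of 2-fold or more, against 17.8% of all tested probe sets. The widest were Vav1, an exchange factor of blood cells, with 79.3, 172, 269 and 167, Cd37, a tetraspanin, with 62.4, 159, 163 and 182, the phosphatase Ptpn18 with 233, 86.1, 186 and 92.5, and Apbb1ip, an adaptor of integrin activation, with 130, 86.7, 203 and 206. Vav1 and Cd37 were lowest in the 1-hour sample, as were C1qa and C1qb, and 7 of the 26 lay above the mean of the other 3 there (median -0.09), against 54.6% of all tested probe sets. In the 4-hour sample 15 of 26 were higher (median 0.19), against 50.8% of all tested probe sets, and at 6 hours 21 of 26 (median 0.14), against 50.1%.

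Tyrobp, the signalling adaptor of microglial receptors, had 914, 579, 582 and 793 at 1, 2, 4 and 6 hours. Cx3cr1, the fractalkine receptor, had 324, 368, 365 and 478. The first was thus highest in the 1-hour sample and the second in the 6-hour sample, so the microglial genes did not share an order of samples. Itgam, an integrin chain that forms complement receptor 3, had 11.7, 153, 13.1 and 116, under the floor at 1 and 4 hours. Trem2 and P2ry12 had no probe set with exactly 1 gene in the annotation used here.

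Of the other complement genes, 29 of 40 had such a probe set and 11 were tested, with none passing the trend test of limma and none at an unadjusted p under 0.05. A range of 2-fold or more was found in 6 of 11 (54.5%), against 17.8% of all tested probe sets, and the median log2 range was 1.08, against 0.56. The difference was not tested, and signal level was not matched. C1qc, at 1499 to 1679, and Clu, at 7764 to 9386 on 1 probe set, had log2 ranges of 0.17 and 0.21. The genes of widest range, given next, had lower signals. Itgax, a chain of complement receptor 4, had 156, 92.8, 143 and 280 at 1, 2, 4 and 6 hours. Cd59a, an inhibitor of the membrane attack complex, had 405, 148, 253 and 180, and Cr1l, an inhibitor of C3 activation, had 343, 147, 283 and 227. Both inhibitors were highest in the 1-hour sample and lowest in the 2-hour sample. C1qbp, a mitochondrial protein first isolated by its binding to C1q, had 150, 169, 72.2 and 75.2. Clu, which encodes the secreted chaperone clusterin, had 8613, 7764, 9386 and 9085 on one probe set and 4524, 3304, 3413 and 3332 on another, marked f. The 2 Clu probe sets differed in whether the 1-hour sample stood out. C3ar1, the receptor for C3a, had 158, 71.3, 41.6 and 71.6 and was not tested. Serping1, the inhibitor of C1, had 64.5, 130, 112 and 89.5 and was not tested either. C3 and C4b had no probe set with exactly 1 gene in the annotation used here.

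Signalling from the CSF1 receptor was covered by 12 tested genes, none of which passed the trend test of limma or had an unadjusted p under 0.05. Of the 12, 3 (25.0%) had a range of 2-fold or more, against 17.8% of all tested probe sets, and 1 of the 3, Dok1, had it from a value under the floor. Dok1, an adaptor that dampens kinase signalling, had 204, 141, 23.3 and 170 at 1, 2, 4 and 6 hours, under the floor at 4 hours. Pik3r1, the regulatory subunit of PI3 kinase, had 141, 318, 238 and 261, and Akt1, a kinase downstream of it, had 636, 1273, 1382 and 1112. Both were lowest in the 1-hour sample. Fyn, a kinase of the Src family, had 2385 at 1 hour and 1391, 1586 and 1536 in the others.

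Proteases, their inhibitors and antigen presentation genes were covered by 22 tested genes. None passed the trend test of limma, 2 of 22 had an unadjusted p under 0.05, against 6.27% of all tested probe sets, and 4 (18.2%) had a range of 2-fold or more, a share near the 17.8% of all tested probe sets. Ciita, the activator of MHC class II genes, had 246, 58.9, 162 and 206 at 1, 2, 4 and 6 hours, and H2-Eb1, a class II chain, had 88.6, 89.7, 226 and 160. Ctsk, cathepsin K, had 130, 166, 307 and 286 (trend 1.23, unadjusted p = 0.027, limma adjusted p = 0.738). Cd74, the invariant chain that Ctss cuts, had 240, 346, 165 and 266, lowest in the 4-hour sample. Cst3, cystatin C, an inhibitor of cathepsins, had 30628, 24846, 27858 and 23074, and Ctsd, cathepsin D, had 2996, 4243, 3256 and 4011. Ctsb, cathepsin B, had 5729, 6043, 5368 and 6300. Ctss and this Cst3 probe set had the same order of samples, highest at 1 hour, then 4, 2 and 6 hours, whereas Ctsd and Ctsb had other orders. A second Cst3 probe set, marked i, had 1628, 1658, 1066 and 1535, another order again. Of the 3 other Ctsb probe sets, one had 596, 625, 496 and 491, one had 349, 434, 520 and 356, and the third was under the floor in every sample.

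**Figure D4:**
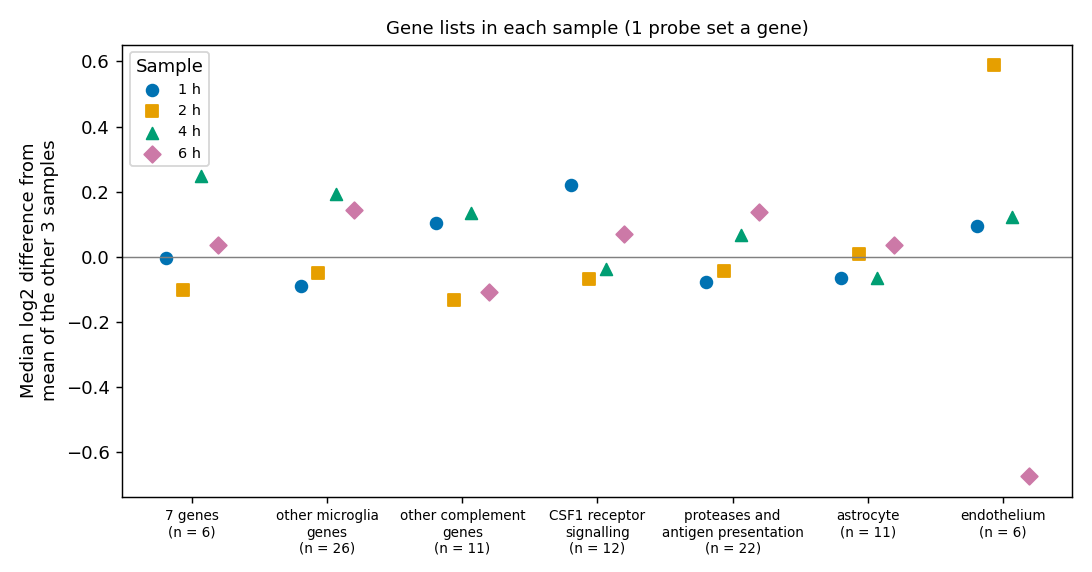
Median log2 difference of each gene list from the mean of the other 3 samples (y axis), by list (x axis, with the number of tested genes, 1 probe set a gene) and sample (symbols, in hours). The 6 tested of the 7 genes lie between -0.10 and 0.25, and the endothelial list between -0.67 and 0.59.

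Markers of other cells that the tissue could hold were measured beside these genes. Of 19 genes of blood and perivascular myeloid cells with a probe set, 4 were tested, and their summed signal was 1361, 1522, 1305 and 1409 at 1, 2, 4 and 6 hours. Among the 4, Stab1, a scavenger receptor, had 191, 279, 149 and 182, and Camp, an antimicrobial peptide, had 148, 247, 215 and 162. Hmox1, heme oxygenase, had 714, 709, 644 and 809, and Elane, the neutrophil elastase, had 310, 288, 296 and 256. Mrc1, the mannose receptor of perivascular macrophages, had 62.9, 12.7, 24.2 and 36.6, under the floor at 2 and 4 hours. The 3 probe sets of Ptprc, the common leukocyte antigen, were under the floor in every sample except for 1 of them at 1 hour, with 45.6. Hmox1 alone makes up a large part of the sum, which adds probe sets that are not on a common scale. The median log2 difference of the 4 genes was 0.01, 0.22, -0.06 and -0.19 at 1, 2, 4 and 6 hours, so the sum and the median were not lowest in the same sample. Ttr, the choroid plexus marker, had 2246 at 1 hour and 199, 353 and 143 in the others. All 5 tested choroid plexus genes lay above the mean of the other 3 samples there, against 54.6% of all tested probe sets. Their median was 0.47, and Igfbp2 was above by only 0.002. The part of choroid plexus RNA in the 1-hour values of these genes was not tested. For red blood cells, 2 of 4 genes on the array were tested, with a summed signal of 3390, 2741, 2939 and 2214.

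Markers of neighbouring cell types were set beside the 7 genes. The median log2 range was 0.39 over 6 tested microglia and complement genes, 0.45 over 11 astrocyte genes, 0.64 over 11 neuronal genes, 0.88 over 8 oligodendrocyte genes and 1.11 over 6 endothelial genes, and this difference was not tested. In these lists 1 of 6, 1 of 11, 3 of 11, 4 of 8 and 4 of 6 genes had a range of 2-fold or more, against 17.8% of all tested probe sets. Of these, 1 neuronal and 1 endothelial gene had a sample at the floor. The lists also differ in signal level, which the ranges do not take into account. The median of the endothelial list was 0.59 at 2 hours and -0.67 at 6 hours, where the 6 tested microglia and complement genes had -0.10 and 0.03.

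The neuronal list was low in the 1-hour sample, in which C1qa and C1qb were lowest. There 8 of 11 neuronal genes lay below the mean of the other 3 samples, whereas 54.6% of all tested probe sets lay above it. The neuronal median was -0.54, against -0.01 for the 6 tested microglia and complement genes and 0.05 for all tested probe sets. Syt1, a calcium sensor of synaptic vesicles, had 1092 at 1 hour and 2216, 1592 and 2452 at 2, 4 and 6 hours. Syp, a membrane protein of those vesicles, had 618 at 1 hour and 1186, 717 and 1271 in the others. Map2, a dendritic microtubule protein, had 25.4 at 1 hour, under the floor, and 338, 103 and 268 in the others. Nefm, a neurofilament chain, ran the other way, with 221 at 1 hour and 148, 184 and 125 in the others, and Snap25 was within 17210 to 19258. Of the oligodendrocyte genes, 4 of 8 were higher and 4 lower at 1 hour (median 0.01), among them Mag, a myelin adhesion protein, with 487 at 1 hour and 958, 1285 and 1478 in the others. The part of neuronal RNA in the 1-hour values of C1qa and C1qb was not tested.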

How the data were processed

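RNA from 4 handled control CA1 samples was measured on 1-colour arrays. The deposited table holds 1 intensity for each of 12488 probe sets and sample, on a linear scale. Judged from its values, the authors had scaled the arrays to each other: with 2% cut off at each end, every column has a mean of 500.3. How the arrays were labelled, scanned and summarised is not stated in the labels, and no batch or date was at hand. All 4 sample titles begin with "2nd", which the labels do not explain.

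Control probe sets (66) were not tested. The array's annotation gave the gene names: 10833 probe sets had 1 gene symbol, 396 several and 1193 none, and 10817 of the first kind were matched to the gene table of GRCm38.p6 for current symbols. After quantile normalization of the columns, values below their 20th percentile (35.1) were raised to it and log2 was taken. Probe sets with a mean log2 value at or above the 40th percentile, 7453 in all, were fitted in limma 3.58.1 (R 4.3.3) with hours as a linear term and eBayes with an intensity trend. P-values are two-sided, adjusted by Benjamini-Hochberg over all of these, and measure only the spread between these samples, which may be technical. The fit was tested on simulated data with planted trends. At adjusted p under 0.05 it recovered 6% of those of 1 on the log2 scale. For trends of 2, -2 and 4 it recovered 44%, 52% and 82%, so most trends of 2-fold would be missed. The number of arrays limits the precision. Single samples were set against the other 3 without a test.

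The 7 genes, the lists and the tests were chosen with earlier results of these data known. The text names every probe set of the 7 genes, the 4 tested genes of widest range in each list it describes (cell types other than myeloid cells and neurons are given mainly by medians or sums, with examples), a preset of genes (some are not reported here), and the 3 nearest profiles for each of the 3 probe sets of widest range. In lists, a gene stands by its brightest tested probe set. Alternatives were the values as deposited, equal medians, other floors, no filter, hours on a log2 scale, all probe sets of a gene averaged, and leaving out each sample. Python 3.11.15 and matplotlib 3.10.9 made the figures.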

Additional observations from a re-analysis of the deposited data

Results flagged for a closer look

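Of 85 probe sets examined, 6 had 1 sample far from the others. Its gap to the nearest other made up more of the range over the 4 samples than Dixon's critical value allows. For sets not picked by their values, chance passes that limit in about 1 in 20. The 85 include probe sets named for their wide range over these same samples, so that rate need not hold for them. None of the 6 belonged to the 7 microglia and complement genes. In 5 of them the outlying sample was the 1-hour one, whose Gapdh 3' over 5' ratio was 4.52, and the part of RNA quality was not tested. There Cd37 was low at 62.4, Clu (the probe set marked f) was high at 4524, Gfap, the astrocyte filament protein, was high at 2283, Mrc1 was high at 62.9, and 1 Ptprc probe set was at 45.6. The other 3 Ptprc values were under the floor and so set equal, which makes the gap the whole range for any value above the floor. Without that set, 4 pointed to the 1-hour sample, among them Mrc1, with 2 of its other 3 values under the floor. In the 4-hour sample Pecam1, an endothelial adhesion molecule, was at 30.9, under the floor.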

How the results depend on the processing

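No paired analysis was possible because there was 1 group with 1 sample at each time. The trend over hours called 0 probe sets under every alternative except without the 2-hour sample, where it called 3, so that leaving out samples gave 0 to 3, and 0 of the 7 genes' probe sets passed under any alternative. With no filter on low values, 1141, 732, 817 and 769 probe sets lay 2-fold or more from the other samples at 1, 2, 4 and 6 hours, against 470, 221, 224 and 234. With the floor at the 40th percentile the numbers were 307, 85, 92 and 100. A range of 2-fold or more was found in 3432 with no filter and, leaving out samples, in 666 (without the 1-hour sample) to 1035, against 1330. Of the 7 genes' probe sets, 2 had such a range with no filter, since Aif1 then counts, and 0 to 1 when samples were left out, 0 being without the 1-hour sample. Trends that failed the test changed sign 9 times in 90 refits. The second C1qb probe set had 0.042 with hours on a log2 scale, 0.26 without the 2-hour and 0.06 without the 6-hour sample, against -0.10 (-0.84 to 0.26 over the left-out samples). Csf1r had 0.24 without the 6-hour sample, against -0.17 (-0.26 to 0.24), and its second probe set 0.0017 with log2 hours and 0.49 without the 6-hour sample, against -0.05 (-0.14 to 0.49). Cd68 had 0.10 without the 1-hour sample, against -0.02 (-0.084 to 0.10). The second Laptm5 probe set had 0.17 without the 1-hour and 0.10 without the 4-hour sample, against -0.07 (-1.10 to 0.17). The causes were not tested. The signs of the C1qa, C1qb (first probe set), Ctss and Laptm5 (first probe set) trends were kept under every alternative run, but their sizes were not. C1qa had 0.16 without the 1-hour and 1.30 without the 6-hour sample, against 0.58, and C1qb 0.085 and 1.61, against 0.59. Ctss had -0.088 without the 1-hour sample, against -0.30 (-0.42 to -0.088). Laptm5 had 0.51 without the 6-hour sample, against 0.25 (0.17 to 0.51). The 1-hour difference of C1qa ran from -0.73 to -0.56 and that of C1qb from -0.81 to -0.57. Of the recomputed list medians, 397 stayed within their spread over samples and 35 moved by more.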
